A study of Mus musculus with 30 samples.

Results

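Of the genes widely used as readouts of the transcriptional co-activators YAP and TAZ, 10 are described here across the treatments of tail-tendon fibroblasts: Ankrd1, Axl, Crim1, Myof, Asap1, Rbms3, Ccdc80, F3, Nuak2 and Arhgef17. They were taken by name from 35973 genes in the RNA table of blebbistatin and 35972 in that of Y27632, and all 10 were measured and passed the filter on low values under both treatments. RNA was read in 9 libraries of primary wildtype mouse fibroblasts from tail tendon, with 3 libraries per treatment: DMSO, the solvent, blebbistatin (10 µM) or Y27632 (30 µM). Blebbistatin inhibits the motor of myosin II and so lowers the contractile pull of the cell, and Y27632 is a second compound used to lower it. Chromatin accessibility was read by ATAC-seq in 9 further libraries of the same 3 treatments. A second set of 12 DNA libraries had neither drug, blebbistatin at 10 µM, doxycycline at 10 ng/mL, or both, with 3 libraries each. The labels give wildtype as the genotype of every library, 0.1% serum as the medium, and no treatment time. They do not state what doxycycline induced, and the 12 DNA libraries carry no assay label of their own beyond the ATAC protocol. Nothing says that libraries of a group came from separate cultures or animals, so p-values measure the spread between these libraries, which may be technical.

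YAP and TAZ have no DNA-binding domain and reach their target genes through the TEAD transcription factors, which recognise the sequence GGAATG. In cells under tension, YAP and TAZ gather in the nucleus; the Hippo kinases and low tension keep them in the cytoplasm. Many targets feed back on adhesion, the cytoskeleton and the matrix, and in tendon fibroblasts, which live under load, these are the structures that carry force. The members span these roles: a nuclear ankyrin-repeat protein (Ankrd1), an RNA-binding protein (Rbms3), a kinase (Nuak2), a receptor kinase (Axl), the receptor that starts clotting (F3), regulators of membrane and small GTPases (Myof, Asap1, Arhgef17), and a membrane-bound and a secreted protein (Crim1, Ccdc80).

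Total reads in genes ran from 23375386 to 37061737 over the 9 RNA libraries. Summed markers of tendon fibroblasts lay between 21911 and 23180 CPM (counts scaled to a common library total) with DMSO, 20994 and 22720 with blebbistatin, and 22080 and 23058 with Y27632, mostly from Col1a1, Col1a2, Dcn and Tnc, while the tendon factor Scx was at 2.10 to 3.26 CPM. Summed markers of macrophages and other blood cells, all 5 of 5 detected, were at 58.2 to 64.6 CPM with DMSO, 81.8 to 94.6 with blebbistatin and 76.1 to 86.5 with Y27632. Summed endothelial markers, 4 of 4 detected and mostly Tek, were at 118 to 119, 78.5 to 88.5 and 106 to 111 CPM, with Pecam1 under 1 CPM in all 9 libraries. Summed pericyte markers, 4 of 4 detected and mostly Pdgfrb, were at 742 to 793, 820.2 to 848 and 709 to 756 CPM. Summed cartilage markers were at 5.09 to 6.10, 8.21 to 8.87 and 8.04 to 8.18 CPM, mostly from Sox9, with Acan at 0 with DMSO. Summed Schwann cell markers, 3 of 3 detected, were at 4.32 to 5.11, 6.03 to 6.46 and 5.03 to 6.16 CPM, and those of epithelium and skeletal muscle were under 1 CPM in all 9 libraries. With blebbistatin, the blood-cell, pericyte, cartilage and Schwann cell sums all lay above, and the endothelial sum below, their DMSO ranges. The markers within a sum did not all move together. Of the endothelial markers only Tek lay below its DMSO range, while Cdh5 and Kdr lay above theirs and Pecam1 overlapped. Of the pericyte markers, Pdgfrb and Cspg4 lay above their DMSO ranges, and Rgs5 and Kcnj8 below. Macrophages are known to express Axl and F3, and endothelial cells to express Myof. The part of these cells in the results below was not tested. In bulk RNA, fewer cells of a type and less RNA per cell cannot be told apart.

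With blebbistatin, 9 of the 10 genes fell and none rose; Asap1 alone did not pass the test. The decreases were largest for Nuak2, Ankrd1, Rbms3 and Crim1, and between 0.29 and 0.51 on the log2 scale for Ccdc80, Axl, Arhgef17, F3 and Myof. Of all 14882 genes tested with limma, 26.9% were called lower at an adjusted p under 0.05 and 26.1% higher. The median log2 change of the members was -0.50, against 0.00 over all genes tested. In the same 9 genes every blebbistatin library lay below every DMSO library, a pattern found in 30.2% of all genes tested. The members were chosen with earlier results of these data known, so here and below these shares are context and not a test.

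With Y27632, 7 of the 10 genes fell, 2 rose and Asap1 again did not pass the test. The genes that fell were Ankrd1, Crim1, Myof, Arhgef17, Ccdc80, Axl and Rbms3, and those that rose were Nuak2 and F3. Of 14833 genes tested with limma, 17.8% were called lower and 18.1% higher. The members' median log2 change was -0.28, against 0.00 over all genes. In the 7 that fell, every Y27632 library lay below every DMSO library, as in 23.7% of all genes tested, and for F3 every Y27632 library lay above every DMSO library, as in 24.4%. Both comparisons use the same 3 DMSO libraries, so the 2 counts are not independent of each other.

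**Figure D1:**
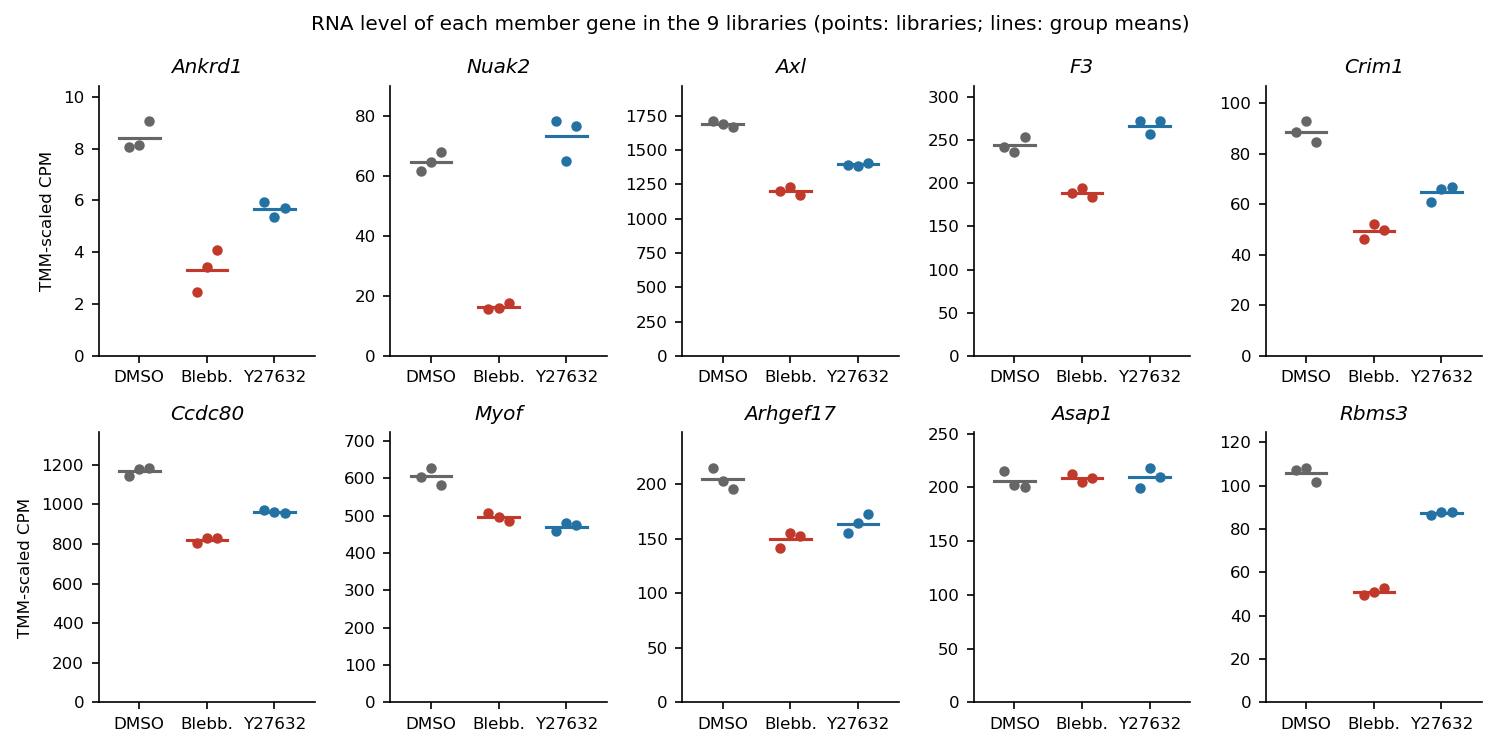
RNA level of each gene in each of the 9 libraries, in CPM scaled by the trimmed mean of M-values (TMM), with group means as lines and each vertical axis starting at 0. Nuak2 and F3 were lowest with blebbistatin and highest with Y27632 by group mean, and the Asap1 points of the 3 groups overlap.

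Nuak2, a kinase of the AMPK family that acts on the myosin phosphatase and so on contractility, had the largest decrease of the 10. In the blebbistatin table, Nuak2 had 1638, 1720 and 1798 normalised counts in the DMSO libraries and 411, 424 and 474 in the blebbistatin libraries. Both ranges are narrow and lie far apart. The group means were 1719 ± 79.8 and 437 ± 33.1 normalised counts (SD, n = 3), a 3.93-fold decrease, with a log2 change of -1.98 ± 0.061 (SE, limma adjusted p 1.04e-10). Only 0.457% of all genes tested had a lower log2 change. In the Y27632 table, which the authors scaled separately, Nuak2 had 1703, 1785 and 1868 normalised counts with DMSO and 2150, 1791 and 2124 with Y27632. One Y27632 library lies within the DMSO range, so these groups overlap. The log2 change was 0.18 ± 0.062 (SE, limma adjusted p 0.0426). A limma fit of all 9 libraries on TMM-scaled log2 CPM ended that call, at a limma adjusted p of 0.0625. So did leaving out DMSO replicate 1 (0.147), DMSO replicate 2 (0.0979), Y27632 replicate 1 (0.155) or Y27632 replicate 3 (0.158).

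Nuak1, the nearest relative of Nuak2, fell with both treatments. Its log2 change was -1.23 with blebbistatin and -0.48 with Y27632, with limma adjusted p-values of 5.95e-09 and 6.38e-07. The Nuak1 mean was 1972 ± 8.31 normalised counts with DMSO and 842 ± 80.4 with blebbistatin (SD, n = 3).

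Ankrd1, the cardiac ankyrin-repeat protein that shuttles between the contractile apparatus and the nucleus, is among the most used YAP/TAZ readouts. It had 214, 216 and 240.1 normalised counts with DMSO and 65.4, 90.4 and 108 with blebbistatin. The groups do not overlap, and the blebbistatin libraries spread more, relative to their mean, than those of any other member. The log2 change was -1.36 ± 0.159 (SE, limma adjusted p 1.42e-05), a 2.57-fold decrease. With Y27632, the DMSO libraries had 223, 224 and 250 normalised counts and the treated ones 163, 148 and 158. Here too the groups lie apart, at a log2 change of -0.57 ± 0.092 (SE, limma adjusted p 3.81e-04). Of the genes tested with Y27632, 4.70% had a lower log2 change than Ankrd1. Of its relatives, Ankrd2 was too low to be tested, and Ankrd23 had log2 changes of 0.26 and 0.24 with limma adjusted p-values of 0.112 and 0.133.

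The promoter of Ankrd1 is shown because the only differential ATAC site at a member's start in the ATAC lists lies over it, and that of Axl because a doxycycline site covers much of it. Each line gives the 250 bases before the transcription start, 5′ to 3′ on the gene's strand, from RefSeq on GRCm38.p6, with GGAATG, or its reverse complement, in capitals. The Ankrd1 window is chr19:36119845-36120094 on the minus strand, and the Axl window is chr7:25788734-25788983 on the minus strand.
Ankrd1: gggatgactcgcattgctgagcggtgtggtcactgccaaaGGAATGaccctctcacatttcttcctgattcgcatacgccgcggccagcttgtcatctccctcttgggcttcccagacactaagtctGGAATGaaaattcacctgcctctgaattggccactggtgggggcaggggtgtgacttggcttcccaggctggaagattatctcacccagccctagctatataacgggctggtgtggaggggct
Axl: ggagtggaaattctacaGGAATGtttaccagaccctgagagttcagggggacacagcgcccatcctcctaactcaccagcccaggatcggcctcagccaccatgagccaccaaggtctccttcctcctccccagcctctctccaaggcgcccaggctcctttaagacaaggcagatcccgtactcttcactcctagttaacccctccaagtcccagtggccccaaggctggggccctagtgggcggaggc

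The Ankrd1 window holds 2 copies of GGAATG, starting 210 and 123 bases before the transcription start, and the Axl window holds 1, starting 233 bases before it. Among 32851 RefSeq promoter windows of 250 bases, 12.6% hold GGAATG on either strand and 1.02% hold it at least 2 times. RefSeq windows were matched for 6 members, as 7 windows. The Crim1 window holds 1 GGAATG, and the windows of F3, Myof and Rbms3 hold none. The AP-1 motif TGANTCA, found in 6.75% of all windows on either strand, occurs 2 times in the F3 window and in no other member's, and the CArG box of the serum response factor, found in 1.47%, in none. No 2 matches overlapped. Asap1, Ccdc80, Nuak2 and Arhgef17 had no window.

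Rbms3, an RNA-binding protein of the MSSP family, fell with both treatments. It had 2849, 2881 and 2694 normalised counts with DMSO and 1316, 1348 and 1403 with blebbistatin, with no overlap. The log2 change was -1.05 ± 0.041 (SE, limma adjusted p 8.09e-10). In the Y27632 table the counts were 2961, 2991 and 2799 with DMSO and 2380, 2417 and 2437 with Y27632. These groups also lie apart, but the change was smaller, -0.27 ± 0.036 (SE, limma adjusted p 6.81e-05). Rbms1, a relative, changed by -0.20 with blebbistatin (limma adjusted p 2.23e-04) and by -0.03 with Y27632 (limma adjusted p 0.479). Rbms2, another relative, had log2 changes of 0.05 and 0.02 (limma adjusted p 0.226 and 0.668).

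Axl is a receptor tyrosine kinase of the TAM family, which also holds Tyro3 and Mertk, and Gas6 is its ligand. Axl had 45423, 44937 and 44245 normalised counts with DMSO and 32002, 32458 and 31130.0 with blebbistatin, and the groups do not overlap. The log2 change was -0.49 ± 0.030 (SE, limma adjusted p 3.57e-08). With Y27632, 47222, 46651 and 45979 normalised counts became 38239, 38198 and 38925, again without overlap, at a log2 change of -0.28 (limma adjusted p 9.68e-06). Whether the shift of the blood-cell markers given above bears on the Axl values was not tested. The other TAM receptors moved the other way or did not pass the test. Tyro3 rose by 0.54 with blebbistatin (limma adjusted p 1.03e-06) and had a log2 change of 0.06 with Y27632 (limma adjusted p 0.375). Mertk, which macrophages also carry, rose by 0.63 and 0.62, with limma adjusted p-values of 0.00130 and 0.00106. Gas6 fell by 0.11 with blebbistatin (limma adjusted p 0.00845). With Y27632 its log2 change was 0.08 at a limma adjusted p of 0.0376, a call lost in 10 of 13 alternatives, with adjusted p-values up to 0.108.

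F3, or tissue factor, is the receptor for factor VII that starts the extrinsic clotting pathway. Its counts were 6423, 6278 and 6721 with DMSO and 5003, 5129 and 4892 with blebbistatin, on the normalised scale. Every treated library lay below every DMSO library, and the log2 change was -0.37 ± 0.035 (SE, limma adjusted p 2.10e-06). With Y27632 the direction was opposite: 6677, 6517 and 6985 normalised counts with DMSO and 7464, 7063 and 7516 with Y27632. The groups do not overlap, but the lowest treated library is close to the highest DMSO library. The log2 change was 0.13 ± 0.036 (SE, limma adjusted p 0.0136). Leaving out DMSO replicate 2 or Y27632 replicate 3 ended this call, at limma adjusted p-values of 0.0697 and 0.0596.

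Of the partners examined, 5 act in clotting. Thbd, the thrombomodulin that restrains clotting, fell by 0.51 with blebbistatin and 0.12 with Y27632 (limma adjusted p 2.65e-08 and 0.0131), the second call being lost without Y27632 replicate 1 (0.0585) or replicate 2 (0.0519). F2r, the thrombin receptor, fell by 0.38 and 0.37 (limma adjusted p 2.28e-05 and 2.00e-04). Tfpi, the inhibitor of tissue factor, fell by 0.14 with blebbistatin (limma adjusted p 0.00731) and had a log2 change of -0.05 with Y27632 (limma adjusted p 0.255). Its relative Tfpi2 fell by 0.84 with Y27632 (limma adjusted p 2.61e-05) and had a log2 change of -0.24 with blebbistatin at a limma adjusted p of 0.0630, which passed at 0.0105 without DMSO replicate 1. Pros1, or protein S, which restrains clotting and is also a ligand of the TAM receptors, is named after its values were seen. It rose by 0.34 with blebbistatin (limma adjusted p 3.01e-06) and had a log2 change of -0.04 with Y27632 (limma adjusted p 0.483).

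Crim1 is a membrane protein with cysteine-rich repeats that binds bone morphogenetic proteins, and Ccdc80 is a secreted protein of the matrix. Crim1 had 2351, 2469.9 and 2247 normalised counts with DMSO and 1233, 1371 and 1322 with blebbistatin. Its Y27632 table has 2444, 2564 and 2335 with DMSO and 1677, 1824 and 1848 with Y27632. Neither treated group overlaps DMSO, and the log2 changes were -0.85 and -0.46, with standard errors of 0.049 and 0.047 and limma adjusted p-values of 2.49e-08 and 8.15e-06. Ccdc80 means were 31053 ± 599 normalised counts with DMSO and 21767 ± 349 with blebbistatin, and with the scaling of the Y27632 table, 32264 ± 607 with DMSO and 26532 ± 131 with Y27632 (SD, n = 3). Its log2 changes were -0.51 and -0.28, with limma adjusted p-values of 2.31e-08 and 7.71e-06. Srpx, which shares a domain with Ccdc80, fell by 0.32 and 0.24 (limma adjusted p 0.00145 and 0.00881). Srpx2, a relative of Srpx, had log2 changes of -0.24 with blebbistatin (limma adjusted p 4.71e-05) and 0.07 with Y27632 (limma adjusted p 0.0989).

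Among the genes that act on membranes and small GTPases, Myof and Arhgef17 fell with both treatments and Asap1 passed neither test. Myof, a ferlin that acts in membrane repair and fusion, had 16058, 16708 and 15428 normalised counts with DMSO and 13462, 13065 and 12925 with blebbistatin. The Y27632 table gave 16694, 17345 and 16033 with DMSO and 12578, 13213 and 13106 with Y27632. No groups overlap. The log2 changes were -0.29 and -0.36, with standard errors of 0.035 and 0.035 and limma adjusted p-values of 1.77e-05 and 4.32e-06, so that by value Myof was the only member that fell with both drugs and fell more with Y27632. The related ferlin Dysf rose by 0.34 with blebbistatin (limma adjusted p 4.65e-04) and fell by 0.24 with Y27632 (limma adjusted p 0.00855).

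Arhgef17 is a guanine nucleotide exchange factor, which activates small GTPases. Its means were 5443 ± 263 normalised counts with DMSO against 3972 ± 186 with blebbistatin, and 5655 ± 275 against 4521 ± 257 with Y27632 (SD, n = 3), at log2 changes of -0.45 and -0.32 and limma adjusted p-values of 2.55e-06 and 1.09e-04. Arhgef10, another exchange factor, fell by 0.55 and 0.29 (limma adjusted p 5.75e-08 and 3.72e-05).

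Asap1 inactivates Arf GTPases and acts at focal adhesions. It had 5722, 5371 and 5308 normalised counts with DMSO and 5662, 5392 and 5560.4 with blebbistatin, and the groups overlap. With Y27632 the counts were 5949, 5576 and 5517 against 5487, 6019 and 5813, which also overlap. The log2 changes were 0.02 with blebbistatin (95% interval -0.06 to 0.10, limma adjusted p 0.691) and 0.02 with Y27632 (95% interval -0.06 to 0.11, limma adjusted p 0.690). These intervals leave room for small changes in either direction. Its relative Asap2 rose by 0.16 with blebbistatin (limma adjusted p 0.0103) and had a log2 change of 0.10 with Y27632 (limma adjusted p 0.117). Asap3 fell by 0.28 and 0.32 (limma adjusted p 1.83e-04 and 1.46e-04).

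**Figure D2:**
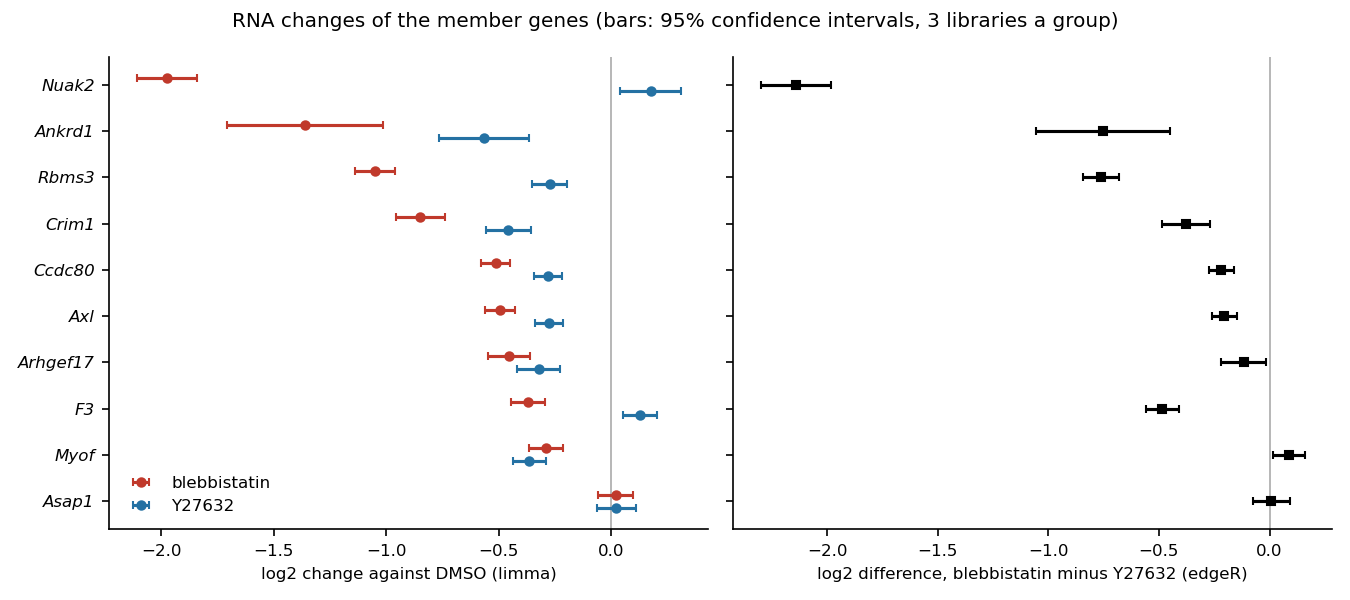
Log2 changes of the 10 genes against DMSO on the left (red, blebbistatin; blue, Y27632; limma) and the log2 difference between the treatments on the right (edgeR), with 95% confidence intervals and 3 libraries a group. The spread behind the intervals on the right was estimated over all 9 libraries. With blebbistatin 9 intervals lie wholly below 0, and with Y27632 those of Nuak2 and F3 lie above it.

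The 2 drugs were then compared directly on reads recovered for the 9 libraries, at the single dose used of each. Of the 10 genes, 8 were lower with blebbistatin than with Y27632, Myof was higher and Asap1 did not pass the test. edgeR's quasi-likelihood test called 26.2% of 14955 genes lower with blebbistatin and 26.9% higher. The median log2 difference of the members was -0.30, against 0.01 over all genes tested. Nuak2 had 15.5, 16.1 and 17.8 TMM-scaled CPM with blebbistatin and 78.2, 65.0 and 76.8 with Y27632, a log2 difference of -2.14 ± 0.074 (SE, edgeR adjusted p 2.98e-11). Of all genes tested, 0.154% had a lower log2 difference. Rbms3 differed by -0.76 (standard error 0.038, edgeR adjusted p 1.07e-09) and Ankrd1 by -0.75 (standard error 0.141, edgeR adjusted p 4.61e-04).

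F3 had 188, 195 and 184 TMM-scaled CPM with blebbistatin and 272, 256 and 272 with Y27632, a log2 difference of -0.49 at an edgeR adjusted p of 4.21e-08. Crim1 differed by -0.38, Ccdc80 by -0.22 and Axl by -0.20, with edgeR adjusted p-values of 2.39e-05, 9.79e-06 and 1.58e-05. In these 7 genes every blebbistatin library lay below every Y27632 library, as in 31.2% of all genes tested. The 2 remaining calls were near the threshold. Arhgef17 differed by -0.12 (edgeR adjusted p 0.0466), with overlapping groups. Myof differed by 0.09 (edgeR adjusted p 0.0389), every blebbistatin library lying above every Y27632 library, as in 29.4% of all genes tested. Of 15 alternatives, 6 lost the Arhgef17 call, with adjusted p-values up to 0.192, and 8 lost the Myof call, with values up to 0.194. The libraries whose omission alone ended the Arhgef17 call were DMSO replicate 2, blebbistatin replicate 1, Y27632 replicate 2 and Y27632 replicate 3. For Myof they were each of the 3 blebbistatin replicates, Y27632 replicate 1 and Y27632 replicate 3. Asap1 differed by 0.01 with a 95% interval of -0.08 to 0.09 (edgeR adjusted p 0.887).

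The genes whose pair of log2 changes lay nearest to that of a member were sought among 11464 others with a mean of at least 100 reads, by Euclidean distance over the blebbistatin and Y27632 changes from edgeR on the 9 libraries. For Nuak2, at -1.97 and 0.17, the nearest were Dgki at a distance of 0.24, Inhba at 0.30 and Cyr61 at 0.31. Cyr61, a secreted matricellular protein and itself a widely used YAP/TAZ target, had log2 changes of -2.00 and -0.14. For Rbms3, at -1.05 and -0.28, they were Bach2 at 0.01, Fam20a at 0.01 and Lactb at 0.03. For Ankrd1, at -1.33 and -0.57, they were Asns at 0.05, Fat1 at 0.07 and Epha1 at 0.07. The nearest genes thus lay further from Nuak2 than from Rbms3 or Ankrd1, and Nuak2 also had the largest blebbistatin change of these members.

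Beside the members, 12 further genes of YAP/TAZ signatures were examined. Of all genes tested, 26.1% were called higher and 26.9% lower with blebbistatin, and 18.1% and 17.8% with Y27632 (limma). Between the drugs, 26.9% were called higher and 26.2% lower with blebbistatin (edgeR). The counts of this list and the next ones stand beside these shares. Lats2 is counted both here and among the Hippo genes below. With blebbistatin 4 rose, 7 fell and 1 did not pass the limma test, with a median log2 change of -0.47. Amotl2, a scaffold that binds YAP, and Cyr61 had log2 changes of -2.23 and -2.01 (limma adjusted p 1.59e-12 and 7.30e-11), while the growth-arrest gene Gadd45a rose by 1.89 (limma adjusted p 8.98e-10). With Y27632, 3 rose, 4 fell and 5 did not pass, with a median of -0.04. Amotl2 fell by 0.49 (limma adjusted p 3.47e-08), and Nt5e, an ectonucleotidase, and the growth factor Tgfb2 rose by 0.56 and 0.32 (limma adjusted p 0.00596 and 0.00397). Directly compared, 7 of the 12 were lower with blebbistatin and 3 higher (edgeR), with a median of -0.33. Cyr61 differed by -1.87, Amotl2 by -1.72 and Gadd45a by 1.68 (edgeR adjusted p 1.67e-11, 3.36e-13 and 1.71e-10).

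Among 18 genes of the Hippo kinases, YAP, TAZ, the TEAD factors and their regulators, 5 rose, 9 fell and 4 did not pass with blebbistatin, at a median log2 change of -0.17. The decreases were led by Vgll3, a TEAD cofactor, at -1.46, Tead3 at -1.16 and Tead1 at -1.09 (limma adjusted p 4.41e-12, 6.97e-10 and 1.65e-09). With Y27632, 6 rose, 7 fell and 5 did not pass, at a median of 0.00. Tead4 fell by 0.94, Tead3 by 0.72 and Tead1 by 0.36 (limma adjusted p 2.09e-05, 6.65e-08 and 4.17e-05). In the direct comparison, 11 were lower and 5 higher with blebbistatin, at a median of -0.19. Vgll3 differed by -1.12, Frmd6, an upstream activator of the Hippo kinases, by -0.94, and Vgll4, a TEAD cofactor that competes with YAP, by 0.76 (edgeR adjusted p 5.11e-12, 1.18e-10 and 3.51e-09).

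Yap1 and Wwtr1, which encode YAP and TAZ, are named outside the rule, after their values were seen. Yap1 rose by 0.13 with blebbistatin (limma adjusted p 0.00615) and had a log2 change of 0.03 with Y27632 (limma adjusted p 0.462). Wwtr1 rose by 0.33 and 0.22 (limma adjusted p 2.52e-06 and 2.93e-04). RNA levels do not show where the proteins were in the cell.

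Of 27 partners and relatives of the members, 26 could be tested. With blebbistatin 8 rose, 12 fell and 6 did not pass, at a median of -0.08, and with Y27632 6 rose, 9 fell and 11 did not pass, at a median of -0.01. In the direct comparison 6 were higher and 9 lower with blebbistatin, at a median of 0.00. Nuak1 differed by -0.74 and Tfpi2 by 0.62 (edgeR adjusted p 7.90e-08 and 9.59e-05). Among the relatives of Axl and Myof, Tyro3 differed by 0.49 and Dysf by 0.59 (edgeR adjusted p 2.77e-07 and 8.72e-07), both higher with blebbistatin, while Gas6 differed by -0.17 (edgeR adjusted p 6.87e-05).

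**Figure D3:**
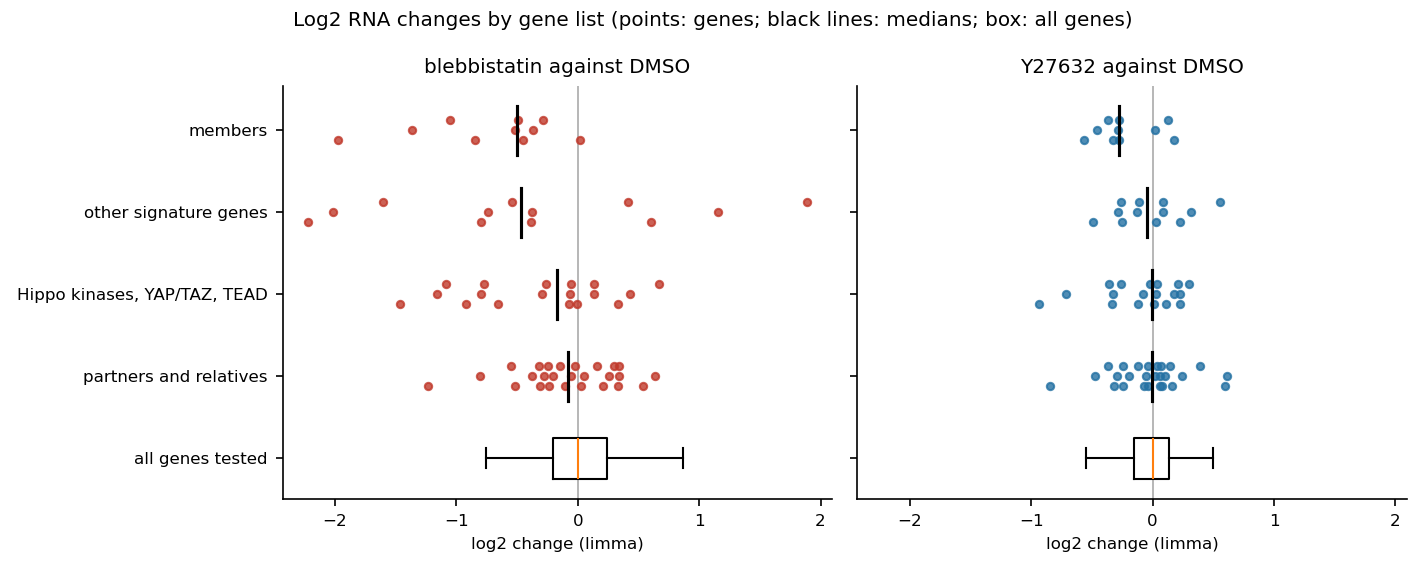
Log2 RNA changes of the members and 3 gene lists against DMSO, with a point per gene and black lines at the medians. The box gives the quartiles of all genes tested and its whiskers the 5th and 95th percentiles, and the members' medians are -0.50 with blebbistatin and -0.28 with Y27632.

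Chromatin near the members was read from the authors' 5 deposited tables of differential sites. Each table holds sites that had already passed an FDR of 0.05, with a log2 fold and group means but no value per library. The authors also cut the tables of the second set of DNA libraries by fold, and none holds an absolute log2 fold under 1.0. The smallest absolute log2 folds of the ATAC tables were 1.24 with blebbistatin and 1.11 with Y27632. Smaller changes are therefore not listed. All folds and FDRs of sites below are therefore the authors', and no test was added. A site belongs to the gene that the authors' annotation names. Over these tables, 56 entries were annotated to members, 20 of them to Asap1 and 13 to Rbms3. A site listed in several tables is counted in each, so there are fewer distinct sites than entries. Rbms3 spans 1057 kb and Asap1 296 kb on GRCm38, and Ankrd1, with 4 entries, spans 7.88 kb. Many of the Asap1 entries are annotated as intergenic, up to 236 kb from the start. Arhgef17 had no listed site.

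With blebbistatin, 6 ATAC sites at 5 members were listed, and all 6 were less accessible. Of the 970 sites there, 98.2% were lower, so the direction of the member sites is that of the table. Of all genes tested in RNA, 3.55% had at least 1 listed site, against 5 of the 10 members. The Ankrd1 site, chr19:36119726-36120203 (mm10), lies at the promoter and covers all 250 bases of the window printed above. Its log2 group mean was 7.05 with DMSO and 5.61 with blebbistatin, a log2 fold of -1.44 at an FDR of 0.0228. The Rbms3 site, chr9:117178461-117178732, lies in intron 1, 73.9 kb from the start, and had a log2 fold of -1.94. Both Ccdc80 sites are intergenic, at chr16:45071499-45071726 and chr16:45077546-45078004, 22.4 and 16.2 kb upstream, with log2 folds of -1.80 and -1.73. The Crim1 site, chr17:77751976-77752391, is 448 kb upstream of the start, with a log2 fold of -1.89, and its link to Crim1 rests on nearness alone.

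Asap1, whose RNA did not pass the test, also had a site that lost accessibility, chr15:64326196-64326454 in intron 2 of 30, with a log2 fold of -1.83 at an FDR of 0.00179. Nuak2, with the largest RNA decrease, had none in this table, nor had Axl, F3, Myof and Arhgef17. The Y27632 table holds 207 sites, 85.0% of them lower, and 1 was annotated to a member: the same Asap1 site, at -1.17 and an FDR of 0.036. Of all genes tested in RNA, 0.863% had a site in that table. A gene without a listed site may have had a change that did not reach the authors' threshold.

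The blebbistatin table also gives, within sites, matches to a motif that the authors' motif search named as most like the TEAD motif. Of its 970 sites 62.2% had at least 1 match, and so had 4 of the 6 member sites. The Ankrd1 promoter site and the Crim1 site had no match listed, though the Ankrd1 window printed above holds GGAATG. The matches are shown because they are the deposited sequence of the sites where the members lost accessibility. Each is read on the strand of the motif, with the 6 bases of the core in capitals.
Ccdc80, site 22.4 kb upstream: tGGAATGtag
Rbms3, intron 1: tGGAATGtta
Asap1, intron 2: aGGAATGcaa
Ccdc80, site 16.2 kb upstream: aGGAATTtat

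The first 3 hold the core GGAATG, and the last holds GGAATT. Of the 837 matches in the table, 64.0% hold GGAATG. A match in these letters does not show that a TEAD factor was bound.

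In the separate experiment, blebbistatin without doxycycline gave 11 listed sites at 5 members, all lower: 4 at Asap1, 3 at Rbms3, 2 at F3 and 1 each at Ccdc80 and Nuak2. Of the 1231 sites there, 99.0% were lower, and 4.44% of genes tested in RNA had at least 1 site. Of the 6 member sites of the ATAC blebbistatin table, 3 overlapped a site in this one, at Ccdc80, Rbms3 and Asap1. Those 3 are also 27.3% of the 11, and over all sites 35.8% of the first table and 28.5% of the second overlapped the other; the 2 tables come from different libraries. Their folds were -1.80 and -1.65 at Ccdc80, -1.94 and -1.19 at Rbms3, and -1.83 and -1.84 at Asap1. The Ankrd1 promoter site was not among the overlapping sites, and neither Ankrd1 nor Crim1 had a listed site in this experiment without doxycycline. The Nuak2 site, chr1:132335216-132335700, lies 19.3 kb from the start, with a log2 fold of -1.09 at an FDR of 4.59e-04. The larger F3 fold was -1.61, at chr3:121737470-121737704, 14.1 kb from the start.

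Doxycycline alone gave 24 listed sites at 9 members, 23 higher and 1 lower, in a table of 7613 sites, 95.8% of them higher and 4.15% lower. Of genes tested in RNA, 24.9% had at least 1 site there. At 4 members the listed sites included the promoter: Ankrd1 with a log2 fold of 1.16, Asap1 with 1.16, Nuak2 with 1.14 and Axl with 1.07. The Ankrd1 promoter site, chr19:36119726-36120252, is the one that lost accessibility with blebbistatin with a later end. The Axl site, chr7:25788512-25788904, covers 171 of the 250 bases printed above, on the side of the start. The GGAATG marked in the Axl window lies outside that site. A site overlapping the Ccdc80 one that lies 22.4 kb upstream was also higher, by 1.03, and none overlapping the other upstream site was listed. Myof had 2 sites, at 1.09 and 1.23. Like Axl, it had no site in the blebbistatin tables. The single decrease was at Asap1, chr15:64618455-64618541, with a log2 fold of -1.02.

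In cells with doxycycline, adding blebbistatin gave 14 listed sites at 4 members, all lower: 8 at Asap1, 4 at Rbms3 and 1 each at Crim1 and Ankrd1. That table has 6346 sites, 99.8% of them lower, and 17.9% of genes tested in RNA had a site. Both tables contain the group with doxycycline alone, once as the treated and once as the reference group, so opposite folds at a site are not independent. At the Crim1 site in intron 2, chr17:78248958-78249084, the log2 group means were 3.89 with neither drug, 5.06 with doxycycline and 3.95 with both drugs. At the Asap1 site chr15:64331122-64331325 in intron 2 they were 4.98, 6.23 and 4.92. None of the 4 promoter sites that doxycycline raised, at Ankrd1, Asap1, Nuak2 and Axl, was in this table. A decrease there by less than a log2 fold of 1.0 would not be listed.

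**Figure D4:**
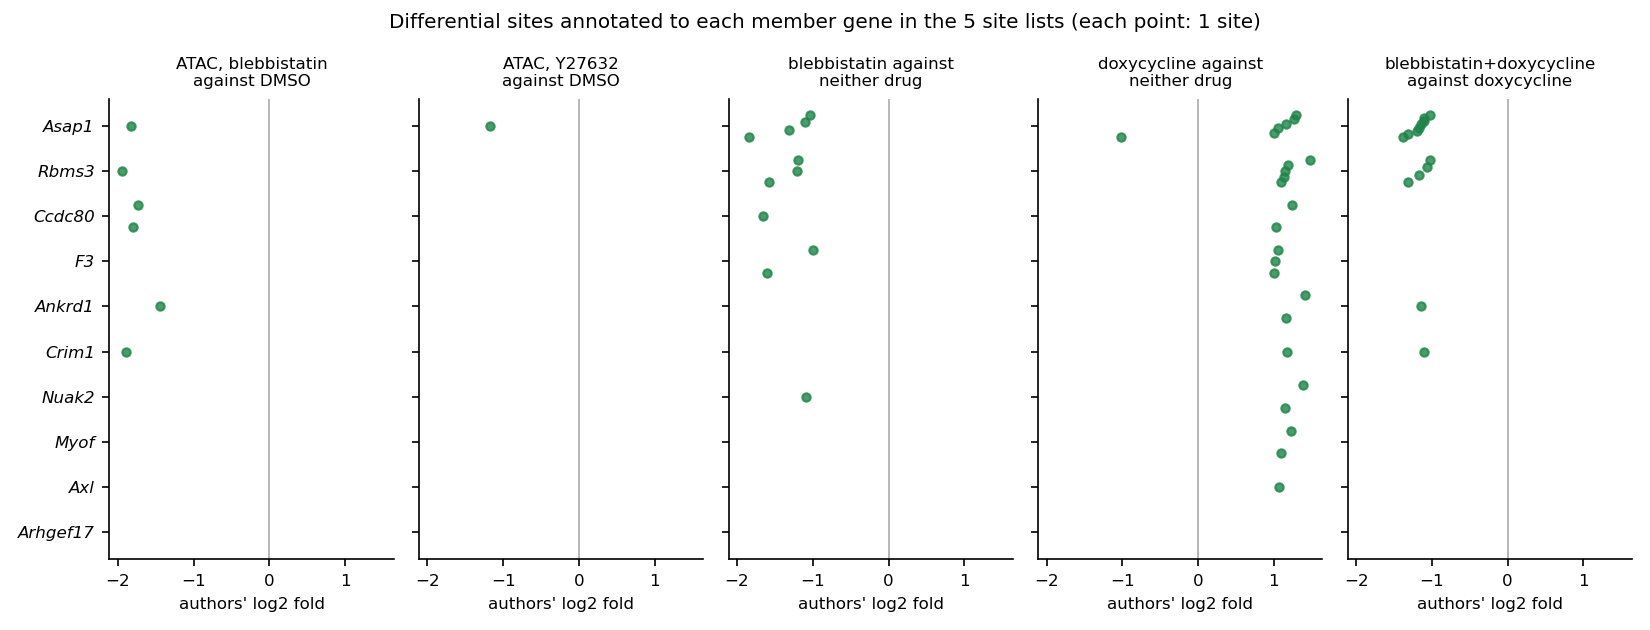
The authors' log2 fold of each differential site annotated to a member, in the 5 deposited tables (columns), with a point per site and sites of a gene spread vertically. All sites of the 4 comparisons with a contractility inhibitor lie below 0, and 23 of the 24 doxycycline sites lie above it.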

How the data were processed

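The RNA signal was deposited by the authors as normalised counts, each library's reads scaled by a single factor, in 1 table per treatment; per the values, whole reads could be recovered for 100% of entries above 0 (within 0.05 of a whole read), and the DMSO reads of the tables were identical. The submitters' processing notes name HISAT2, Picard, featureCounts, DESeq2, Bowtie2, SAMtools, MACS2, DiffBind and HOMER, with no versions or roles, and mm10. The log2 group means, log2 folds and FDR values of sites are the authors', as deposited, with column names as DiffBind and HOMER write them. The control column of the doxycycline sites carries the header of blebbistatin without doxycycline; at 13 shared sites it lay -0.13 ± 0.0044 (SD) from the values with neither drug but 1.12 ± 0.184 (SD) from those its header names, and was read as neither drug. Genes averaging at least 10 normalised counts were tested with limma 3.58.1 (trend, R 4.3.3) on log2(normalised count + 1), which understates changes of low genes, without a replicate block. The treatments were compared by edgeR 4.0.16 (quasi-likelihood, TMM) on recovered reads of 9 libraries. Standard errors and intervals of that comparison were derived from the log2 difference and the F statistic of the test. Their spread was estimated over all 9 libraries. Benjamini-Hochberg adjustment ran over all genes tested, with calls at 0.05. The scripts were tested on simulated data. Members and lists were chosen with earlier results of these data known. Named genes are the members, per list up to 3 with the largest change per comparison, and relatives or partners of a member. DESeq2 1.42.0 served as an alternative. Depth of the DNA libraries is unknown, since only group means were used here. One gene that the naming rule picks is not reported here.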

Additional observations from a re-analysis of the deposited data

How the results depend on the processing

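Of 410 values of the members under the alternatives, 382 kept their direction and their side of the threshold, 21 kept their direction but lost the call (Nuak2 and F3 with Y27632, Arhgef17 and Myof between the treatments), and 7 changed sign, all for Asap1, which was never called. The counts of members lower with blebbistatin (9) and with Y27632 (7) against DMSO were the same under every alternative run. With Y27632, the count of members called higher was 1 instead of 2 with limma on TMM-scaled CPM of all 9 libraries. It ran from 0 to 2 when a library was left out. Between the treatments, the count of members called higher was 0 instead of 1 with DESeq2, with no filter on low counts and with limma on TMM-scaled CPM, and ran from 0 to 1 when a library was left out. The cause of these differences was not tested; leaving out a library also leaves fewer samples. The Asap1 difference was -0.0041 with no filter and -0.0034 with limma on TMM-scaled CPM, and without single libraries it ran from -0.027 to 0.039; its change ran from -0.0018 to 0.052 with blebbistatin and from -0.0074 to 0.059 with Y27632. At an FDR of at most 0.01, 0 of the Y27632 sites at members were left. In the ATAC blebbistatin table, the Ankrd1 promoter site and the Ccdc80 site 16.2 kb upstream were not left either, at FDRs of 0.0228 and 0.0274. Of the 14 sites of blebbistatin with doxycycline, 8 lay within 100 kb of a start. No pairing of the libraries by replicate number was seen over all genes. Deviations of same-numbered libraries correlated between -0.09 and 0.04, and not every library correlated best with its own number. Weak correlations do not show that the libraries were unpaired. With the replicate block, limma called 7604 genes with blebbistatin and 4633 with Y27632, and edgeR 7700 between the treatments. In that edgeR fit the Arhgef17 call was lost, at an edgeR adjusted p of 0.0620. The effect of depth was not tested; Ankrd1, with under 110 normalised counts in each blebbistatin library, had the largest standard errors.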
